A study of Mus musculus with 4 samples.

Results

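Fibroblasts of the uninjured mouse carotid artery were taken from the single-cell RNA-sequencing library of day 0, which was made before wire injury. A cell barcode was kept when it had at least 500 detected genes, at least 1000 unique molecular identifiers (UMIs, each standing for 1 captured transcript), at most 10% mitochondrial UMIs and at most 1 UMI of the leukocyte gene Ptprc. In addition, Dcn, Lum, Dpt, Pdgfra, Serpinf1 and Mfap5 together had to hold at least 0.1% of its UMIs, and the contractile genes Myh11, Acta2, Tagln and Myl9 together less than 0.5%. These limits left 212 cells of the 333 barcodes of day 0, and of 6161 barcodes in the whole series. Of the 249 day 0 barcodes that met the limits on genes, UMIs and mitochondrial share, they were 85.1% (exact binomial 95% interval 80.1% to 89.3%). The cells were thus chosen by their levels of these 11 genes and by depth. The rule was set with values of these data known, and the levels of the 6 markers in these cells are therefore no finding.

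Fibroblasts of large arteries lie mostly in the adventitia, the outer coat of the vessel. They make fibrillar collagens, which give the wall tensile strength, proteoglycans that space and organise the collagen fibrils, and proteins that assemble elastic fibres. They also secrete protease inhibitors, complement proteins, and carriers and modulators of growth factors. In many tissues, fibroblasts positive for Pi16 and Dpp4 lie close to vessels and are regarded as a progenitor-like pool, whereas other fibroblasts carry genes of a particular tissue layer.

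All 4 libraries came from carotid arteries of C57BL/6 mice aged 11 weeks, taken before injury or on days 3, 7 and 14 after it. According to the methods of the study the mice were male, the injury was made by a wire passed through the vessel, and arteries of several animals were pooled for each library. Neither a genetic label nor a sort for fibroblasts was used, so cell identity rests on the transcripts alone, and how well the digestion releases each cell type affects the shares. The study states that digestion was identical between its time points. Its methods describe a shorter digestion for a separate dataset of naive arteries than for injured ones, while the labels of the libraries used here give the longer one. Any part of the digestion in differences between days was not tested. Each day was represented by 1 library. Day and library therefore cannot be told apart, cells of a library are not replicates, and no test was made. The intervals given here are exact 95% intervals that cover counting error only. Levels are given as CPM, the counts per 1000000 UMIs after summing over the cells of a group. Each transcript is counted once near its 3′ end, so no correction for transcript length was applied.

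The day 0 library held 2672722 UMIs in 333 barcodes, against 18989081, 27973418 and 13329564 UMIs in 1689, 3001 and 1138 barcodes on days 3, 7 and 14. The 212 fibroblasts had 2218141 UMIs, with 1012 in the lowest cell, a median of 10106.5 and 27964 in the highest. They had a median of 2993.5 detected genes. Another 22 day 0 barcodes passed the quality limits but had at least 2 Ptprc UMIs, 9 were contractile and 6 met no definition. The same rule gave 160, 225 and 492 fibroblasts on days 3, 7 and 14, with medians of 24850, 12129 and 18773.5 UMIs. The cells of days 3 and 14 were thus sequenced more deeply than those of day 0. At the limits of the rule, the marker share was 0.0299%, 0.0431% and 0.0920% in the 3 nearest barcodes outside and 0.277%, 0.422% and 0.478% in the 3 nearest inside. The highest contractile shares inside were 0.222%, 0.266% and 0.315%, and no barcode was removed by that limit alone.

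Some barcode sequences occurred in more than 1 library. Days 3 and 7 shared 1 of them, days 7 and 14 shared 64, and days 0 and 3 shared 152. In 104 of these 152 the day 0 barcode had more UMIs, with a median ratio of 21.5 between the partners, and 95 of these were day 0 fibroblasts. In the other 48 the day 3 barcode had more UMIs, with a median ratio of 109. A median of 99.4% and 99.7% of the genes of the fainter partner were also found in the brighter partner. Of the 212 fibroblasts, 6 were such fainter partners, each matched by a day 3 fibroblast with more UMIs. These 6 cells held 8 of the 9 Ccl2 UMIs, 4 of the 5 Ccl7 UMIs and the only Saa3 UMI of all members, but 36 of 31847 Dcn UMIs. In the other direction, 17 of the 160 day 3 fibroblasts were fainter partners of day 0 fibroblasts, with a median of 1073 UMIs. They held 29 of the 878 Rbp4 UMIs and 94 of the 2132 Pi16 UMIs of the day 3 fibroblasts, and 5 of 23 for C7, 7 of 26 for Inmt and 1 of 3 for Sost. On days 7 and 14, 1 and 2 fibroblasts were fainter partners. Where a result turned on such cells, its value without them is given. The origin of the shared sequences was not tested.

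The rule fixed the levels of its own markers. Dcn, a collagen-binding proteoglycan, had 14358 CPM (95% interval 14200.3 to 14516) and was detected in 100% of the cells. Pdgfra, a growth factor receptor of mesenchymal cells that the rule also used, had 474 CPM and was seen in 83.0%. Of the fibroblast genes that the rule did not use, the type I collagen gene Col1a1 was seen in 99.5% of the cells at 5016 CPM, against 22.7% and 28.0 CPM in the Ptprc barcodes of day 0. In those barcodes, which should lack it, Dcn was seen in 50% at 56.0 CPM, with a median of 7794.5 UMIs per barcode. A share of cells with a UMI may therefore count some transcripts from elsewhere for the most abundant genes. Their source was not tested. Markers of other cell types were scarce. No UMI was found for any of the B cell, neutrophil or chondrocyte markers, and the 7 macrophage markers had 9 UMIs in all. Of the endothelial markers, Pecam1 had 128 UMIs, Cdh5 had 1, and Vwf, Tie1, Emcn and Egfl7 had none. Among smooth muscle markers, Myh11 had 5 UMIs and Des none, while Acta2, which activated fibroblasts also express, had 464 UMIs in 57.1% of the cells. Of the pericyte markers, the channel genes Abcc9 and Kcnj8 reached 385 and 199 CPM, whereas Rgs5 had 19.8 CPM, Notch3 had 3 UMIs and Higd1b none. The Schwann cell marker Sox10 had no UMI, and S100b had 67.

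Mitochondrial genes took 2.80% and ribosomal protein genes 13.7% of the UMIs. The next 15 genes took 12.9%. They were led by the nuclear RNA Malat1 (30519 CPM) and the protease inhibitor gene Cst3 (17089 CPM), followed by Dcn, Gsn, Fth1, Sparc, Col1a2, Mgp, Igfbp4, Col1a1, Igfbp7, Tpt1, Col3a1, Itm2b and Actb. Most of the named genes encode secreted proteins of the matrix or of growth factor binding. In all, 13680 genes had a UMI, with a median of 15.3 CPM, and 1551 (11.3%) reached 100 CPM. With 0 UMIs the level could still be up to 1.35 CPM, the value of 3 UMIs. In the gene lists used to describe the programme, 134 genes reached 100 CPM. By summed level, metal and redox genes with Gsn (24997 CPM), small leucine-rich proteoglycans (22412 CPM) and collagens (18721 CPM) came first, and proliferation genes (17.6 CPM) last. The place of the proteoglycans rested on Dcn and Lum, which the rule used. Without the 6 markers of the rule, the metal and redox genes were followed by the collagens, the matrix glycoproteins (15532 CPM) and the insulin-like growth factor (IGF) axis (13098 CPM), and the proteoglycans had 5776 CPM, below 10 other lists.

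**Figure D1:**
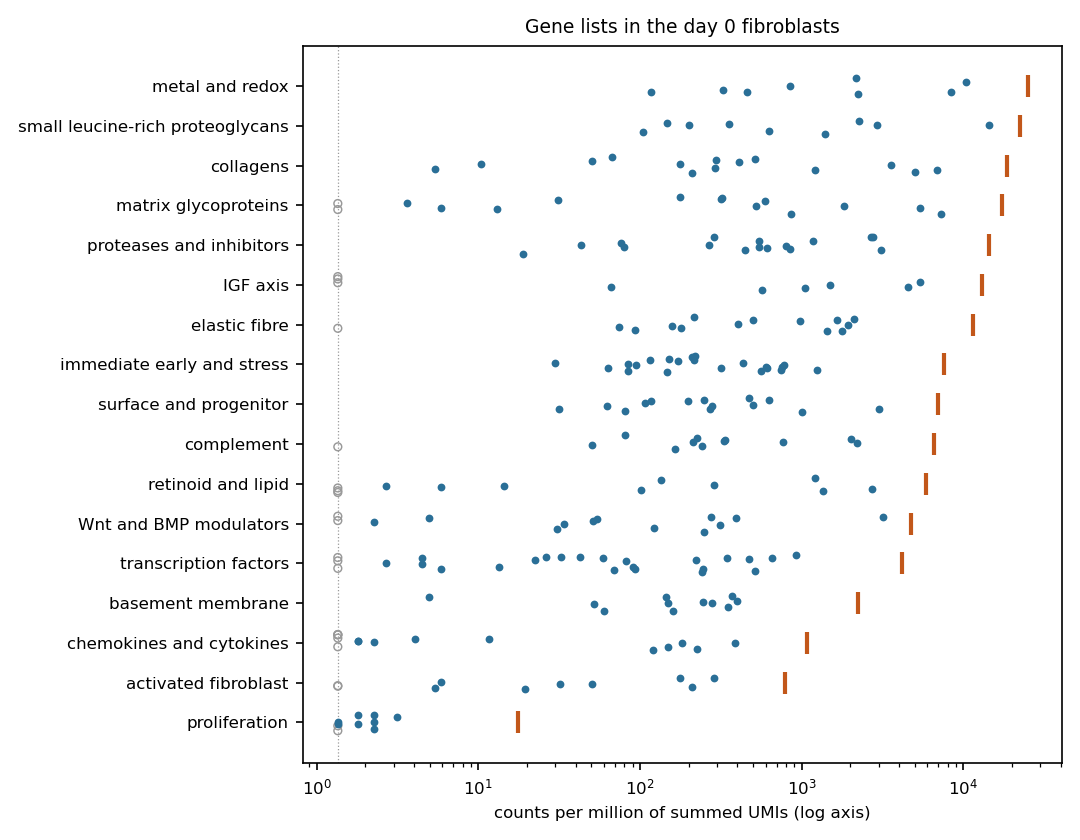
Level of each listed gene in the day 0 fibroblasts, by gene list, in CPM on a log axis. Each point is 1 gene, open circles are genes under the level of 3 UMIs (1.35 CPM) drawn at that level, and the bar is the summed level of the list. All 9 proteoglycans and all 8 metal and redox genes lie above 100 CPM, and no proliferation gene does.

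Collagen transcripts were dominated by the fibrillar types I and III. Col1a2 had 6878 CPM and Col1a1 5016 CPM, the chains of type I collagen, and Col3a1 had 3580.5 CPM. All 3 were seen in at least 99.5% of the cells. Col14a1, a collagen bound to fibril surfaces, followed at 1210.5 CPM, and the type VI chains Col6a1, Col6a2 and Col6a3 had 517, 412 and 176 CPM. The type V chains Col5a1 and Col5a2, which start fibrils, had 291 and 294 CPM. Col12a1 (50.5 CPM), Col5a3 (10.4 CPM) and Col8a1 (5.41 CPM) were the lowest of the 14 collagens. The proteoglycans that bind these fibrils were all above 100 CPM. After Dcn came Bgn (2941 CPM), Lum (2278 CPM) and Ogn (1399 CPM). Podn (105 CPM) and Omd (147 CPM) were the lowest, and Fmod, which is abundant in tendon, had 356 CPM in 49.5% of the cells.

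Elastic fibre genes were present with their assembly factors. Mfap4 (2107 CPM), elastin itself (Eln, 1939.9 CPM), Mfap5 (1770.4 CPM) and Fbln1 (1660.4 CPM) led the list. Fbln5, which is required for elastic fibre assembly, had 1432 CPM, and Ltbp4 had 981 CPM in 93.4% of the cells. Of the fibrillins, which form the microfibril scaffold, Fbn1 had 503 CPM and Fbn2 no UMI. Among matrix glycoproteins, Sparc (7293 CPM), the calcification inhibitor Mgp (5393 CPM), Dpt (1834 CPM) and Smoc2 (858 CPM) were highest. Fn1 was seen in 34.4% of the cells and Postn in 24.1%, at 321 and 177 CPM. Tnc and Thbs1, glycoproteins of wound matrix, had no UMI. The basement membrane list was lower, at 2219.9 CPM for 11 genes. It was led by Lamb2 (399 CPM), Col4a1 (371 CPM), Nid1 (353 CPM) and Lama2 (278 CPM).

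In the list of proteases and inhibitors, the inhibitors stood first. Timp2 had 3119.7 CPM and Timp3 2785 CPM, both inhibitors of matrix metalloproteinases, and Serpinf1, which encodes an antiangiogenic serpin, had 2687 CPM. Timp1 was lower, at 287 CPM, of which 66 of 637 UMIs lay in the 6 fainter partners. Without these cells it had 258 CPM. The collagen processing enhancers Pcolce2 and Pcolce had 1180.3 and 845 CPM. The gelatinase gene Mmp2 was seen in 86.3% of the cells at 546 CPM. Mmp3, a protease with many matrix substrates, had a similar summed level of 613 CPM but was seen in 32.5%, and 1 cell held 15.7% of its UMIs.

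Complement genes reached 6638 CPM, with 9 of 12 above 100 CPM. The regulator Serping1 was highest, at 2208 CPM, and was seen in 96.7% of the cells. C3, the central component, had 771 CPM in 57.5% of the cells, and C7, a part of the membrane attack complex, had 227 CPM in 52.8%. The early proteases C1s1 and C1ra had 335 and 329 CPM, and Cfd, which adipocytes express, had no UMI. Chemokines and cytokines were low. Cxcl12, which retains leukocytes and progenitors in tissue, led with 386 CPM, followed by Ccl19 (224 CPM, a symbol that more than 1 entry of the files carries, so its value is uncertain), the alarmin Il33 (183 CPM) and the eosinophil attractant Ccl11 (149.7 CPM). Ccl11 was seen in 18.9% of the cells. Cxcl2, Cxcl13 and Cxcl14 had no UMI, and Il6 and Saa3 had 1 UMI each.

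In the IGF axis, the binding proteins stood far above the ligand. Igfbp4, Igfbp7, Igfbp5 and Igfbp6 had 5376, 4553, 1491 and 1046 CPM, whereas Igf1 had 566 CPM, its receptor gene Igf1r 66.3 CPM and Igf2 a single UMI. Igfbp4 and Igfbp7 were seen in 98.1% of the cells each, Igfbp6 in 69.3% and Igfbp5 in 51.4%. Igfbp2 and Igfbp3 had no UMI. Among secreted modulators of Wnt and BMP signals, Sfrp2 had 3201 CPM in 83.5% of the cells, well above the next gene, Gdf10 (391 CPM). Sfrp4 had 315 CPM, Gas1 275 CPM and Dkk3 249 CPM. Grem1 had no UMI, and Wif1 had 1.

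Of the surface genes, Pi16 was highest at 3026 CPM in 93.9% of the cells, followed by Ly6a (1001 CPM), Cd34 (628 CPM) and Ackr3 (504 CPM). Dpp4, the partner of Pi16 in descriptions of progenitor-like fibroblasts, was seen in 6.13% of the cells at 31.6 CPM. The transcription factor genes with the highest levels were Nfib (922 CPM), Nfix (655 CPM), Ebf1 (519 CPM) and Tcf4 (469.8 CPM). Osr1 had 345 CPM in 72.2% of the cells, and Prrx1, a factor of limb and cranial mesenchyme, had 223 CPM. Tcf21, which marks fibroblasts of heart and other organs, had 2.70 CPM, and Scx and Tbx20 had no UMI. Among retinoid and lipid genes, Apoe (2728 CPM) and Rbp4 (1359.7 CPM) led. Cd36, Fabp4 and Crabp1 had no UMI.

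Cell cycle genes were near the floor, and genes of activated fibroblasts were mixed. Of the 10 activated fibroblast genes, 3 were above 100 CPM, namely Timp1 (287 CPM), Acta2 (209 CPM) and Postn (177 CPM), and the list had 787 CPM in all. Cthrc1, a marker of matrix-producing fibroblasts after injury, had 5.86 CPM from 13 UMIs, 7 of them in the 6 fainter partners. Fap had 19.4 CPM, Runx1 32.0 CPM, and Lrrc15 no UMI. The 10 proliferation genes had 39 UMIs together, 27 of them in the 6 fainter partners. Without these cells they had 12 UMIs in 8 cells. Immediate early and stress genes, in contrast, were detected in many cells, with 16 of 21 above 100 CPM. Jund had 1243 CPM, Jun 762 CPM, Egr1 613 CPM and Fos 601 CPM. The heat shock genes Hspa1a and Hspa1b had 776 and 747 CPM. They are closely related copies, with promoters identical in 296 of 300 bases. Promoters are not part of the counted transcripts, and whether the transcripts could be told apart was not tested. The split between the genes is therefore uncertain. Fos was seen in 59.0% of the cells.

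The list of metal and redox genes also holds Gsn (10476 CPM), an actin-severing protein with a secreted form, to which it owed the highest summed level of all lists. Without Gsn it had 14521 CPM, which was below the collagens and the matrix glycoproteins. With the markers of the rule also left out of the lists, it was above the other 14 lists. With them kept, the proteoglycans also lay above it. Next were the ferritin chains Fth1 (8377 CPM) and Ftl1 (2235 CPM). The metallothionein genes Mt1 and Mt2, whose proteins bind zinc and copper, had 2161 and 459.8 CPM and were seen in 95.8% and 78.3% of the cells. The secreted dismutase gene Sod3 had 844 CPM in 89.6%. Over the 212 cells, the shares of UMIs of Mt1 and Mt2 went together, with a Pearson correlation of 0.67, a Spearman correlation of 0.697, and 0.404 after every cell was thinned to 1000 UMIs. These cells share 1 library, so the correlation is a description.

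As Mt1 and Mt2 went together across cells, their promoters are shown, from RefSeq on mouse build GRCm38.p6. Each window runs from 250 bases before to 50 bases after the gene start (Mt1 at chr8:94178839-94179138, plus strand; Mt2 at chr8:94172368-94172667, plus strand). Capitals mark matches, on either strand, to TGCACNC or TGCGCNC, the core letters of the metal response element.
Mt1: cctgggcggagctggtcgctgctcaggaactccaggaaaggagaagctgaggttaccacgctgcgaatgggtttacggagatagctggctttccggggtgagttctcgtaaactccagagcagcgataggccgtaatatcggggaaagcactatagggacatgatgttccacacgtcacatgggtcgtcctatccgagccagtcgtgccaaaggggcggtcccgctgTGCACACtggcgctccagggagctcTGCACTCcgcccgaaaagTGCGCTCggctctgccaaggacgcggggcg
Mt2: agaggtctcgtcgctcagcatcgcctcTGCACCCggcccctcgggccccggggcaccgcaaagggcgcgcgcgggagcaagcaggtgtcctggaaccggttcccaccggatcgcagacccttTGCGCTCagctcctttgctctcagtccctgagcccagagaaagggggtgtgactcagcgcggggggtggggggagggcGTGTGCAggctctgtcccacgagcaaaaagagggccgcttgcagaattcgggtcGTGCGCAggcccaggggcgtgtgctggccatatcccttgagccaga
The Mt1 window held 3 matches and the Mt2 window 4. Of 32851 promoters of the same length, 25.7% held at least 1 match. A match describes the letters in the window and not a site in use.

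Against the other day 0 barcodes, which the rule itself had set apart, the fibroblasts had 2067 of 6149 genes at least 2-fold higher than the Ptprc barcodes (33.6%) and 1141 of 5753 at least 2-fold higher than the contractile barcodes (19.8%). Both groups compared were small, with 22 and 9 barcodes, and these counts are descriptions. The 6 genes used below to read heterogeneity were also looked up in the Ptprc barcodes. There, Pi16 was seen in 27.3%, Rbp4 in 13.6% and Igfbp5 in 9.09% of the barcodes, and Clec3b, Lamc3 and Sema3c in none. In the fibroblasts the shares were 93.9%, 84.9%, 51.4%, 86.3%, 51.4% and 27.8%, so all 6 genes were seen more often than in cells that should lack them.

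Heterogeneity was then read along 3 gene pairs. Pi16 encodes a peptidase inhibitor domain protein and Clec3b tetranectin, a plasminogen-binding protein. Rbp4 is the plasma carrier of retinol and Lamc3 a laminin chain. Igfbp5 is an IGF binding protein that attaches to matrix, and Sema3c a secreted guidance cue. In each cell, the share of UMIs of a pair was divided by its mean over the 212 cells, and the cell was given the leading pair where that pair had at least 2 UMIs and at least 1.5 times the scaled value of the next. This gave 59 Pi16/Clec3b cells (27.8%, interval 21.9% to 34.4%), 76 Rbp4/Lamc3 cells (35.8%, 29.4% to 42.7%) and 24 Igfbp5/Sema3c cells (11.3%, 7.39% to 16.4%). In 48 cells (22.6%) the pairs were mixed, and 5 cells (2.36%) had too few UMIs of any pair. Those 5 were all among the fainter partners. The states are ranges of a continuous score and not cell types. A lead between 1.2 and 1.8 was found in 11, 6 and 4 cells of the 3 states and in 30 mixed cells.

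The pairs were graded and not exclusive. In the Igfbp5/Sema3c cells, Igfbp5 had a median of 4773 CPM per cell (lowest 1327, highest 18084), while the median in the Pi16/Clec3b and Rbp4/Lamc3 cells was 0 with highest cells of 1723 and 1556 CPM. A few of those cells thus overlapped the lowest Igfbp5/Sema3c cells. For Rbp4, the Rbp4/Lamc3 cells ranged from 407 to 15464 CPM around a median of 2753, against medians of 294 and 125 CPM in the Pi16/Clec3b and Igfbp5/Sema3c cells. The highest Igfbp5/Sema3c cell still had 5019 CPM, so these groups overlapped. Pi16 did not set the Pi16/Clec3b cells apart from the Igfbp5/Sema3c cells. Its median per cell was 1901 CPM in the Pi16/Clec3b cells, 2356 in the Igfbp5/Sema3c cells and 800.3 in the Rbp4/Lamc3 cells. In summed counts, Pi16 had 3181 CPM in the Pi16/Clec3b cells, 928 in the Rbp4/Lamc3 cells and 7389 in the Igfbp5/Sema3c cells, that is 2.32 times the level of the state named after it. Clec3b was highest in the Pi16/Clec3b cells, at 3791 CPM against 693 and 2601.

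**Figure D2:**
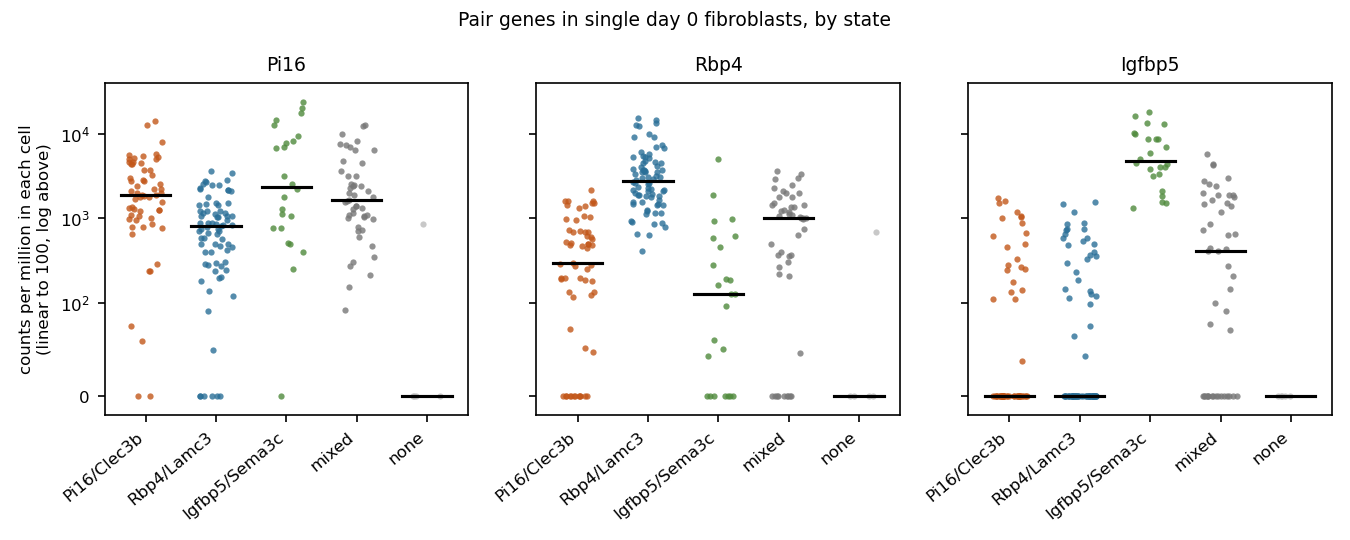
Levels of Pi16, Rbp4 and Igfbp5 per day 0 fibroblast (CPM, on an axis that is linear up to 100 and logarithmic above), by pair state. Each point is 1 cell and the black line the median. Pi16 is found in nearly all Igfbp5/Sema3c cells, with a median of 2356 CPM, while Igfbp5 has a median of 0 in the Pi16/Clec3b and Rbp4/Lamc3 cells.

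Depth differed between the states, with medians of 8510, 10190 and 15776 UMIs in the Pi16/Clec3b, Rbp4/Lamc3 and Igfbp5/Sema3c cells, and its part in the shares was assessed by thinning. With every cell at 1000 UMIs, the shares were 29.2%, 31.6% and 11.3%, close to the shares without thinning. The other cells moved more, from 22.6% to 11.8% for the mixed cells and from 2.36% to 16.0% for those with too few UMIs of any pair. At that depth, co-detection was read over 20 random thinnings, since Sema3c was then left in only 5 to 15 cells. Rbp4 and Sema3c were seen together in 0 to 6 cells, where 2.76 to 8.56 would have carried both if the genes were independent, and fewer than that in all 20 thinnings. Clec3b and Lamc3 were seen together in 11 to 23 cells, against 16.6 to 33.4, and fewer in all 20. Igfbp5 and Sema3c were seen together in 4 to 9 cells, against 1.46 to 4.56, and more in all 20. Pi16 and Igfbp5 were seen together in 43 to 56 cells, against 36.9 to 48.9, and more in 19. Lamc3 and Sema3c were seen together in 0 to 3 cells, too few to be read.

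Outside the pair genes, the Pi16/Clec3b cells differed in the fewest genes from the other members. Of 5563 genes with at least 50 UMIs, 0.557% were at least 2-fold higher and 2.59% at least 2-fold lower in these 59 cells. Of the complement genes, 4 of 11 were at least 2-fold higher and 1, Cd55, at least 2-fold lower, and their summed level was 1.34 times as high. The complement gene C3 had 1324 CPM against 576 in the other members (ratio 2.30, interval 2.09 to 2.53). C7 had 443 against 151 CPM (2.94, 2.46 to 3.51) and was seen in 40 of the 59 cells. The gene of complement component 2 was 2.37 times and C4b 2.00 times as high. Gsn, the actin-severing protein, had 14901 against 8915 CPM. Col3a1 and Sparc had 4954 and 9084 CPM against 3096 and 6661, below the 2-fold limit. The methyltransferase gene Inmt (145 against 47.0 CPM) was also among the leading genes. The opioid precursor gene Penk and Hmox1, which encodes the haem-degrading enzyme, were 2.97 and 2.55 times as high, and 1.51 and 1.67 times without the cell of the state with most UMIs of the gene. Of the 18 genes of a Pi16 progenitor list (Dpp4, Cd55, Wnt2, Ly6c1 and others, without Pi16 itself), 17 had enough UMIs, and 0 were at least 2-fold higher and 5 at least 2-fold lower in the Pi16/Clec3b cells.

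The leading genes of the Pi16/Clec3b cells were Ifit3 and Ifit1, which interferons induce and whose proteins restrict viral RNA. Ifit3 had 123 CPM against 19.5 in the other members (ratio 6.29, 4.09 to 9.87) and was seen in 13 of the 59 cells. Ifit1 had 60.5 against 11.0 CPM (ratio 5.51, 3.04 to 10.3) and was seen in 6. Single cells held 43.7% of the Ifit3 and 54.3% of the Ifit1 UMIs of the state. Without the highest cell of each gene, the levels were 71.8 and 28.7 CPM and the ratios 3.68 and 2.62. The signal thus came from a minority of the state. Over the 212 cells, the shares of UMIs of both genes had a Pearson correlation of 0.66, a Spearman correlation of 0.336, and 0.493 after thinning. Their promoters are shown in the same way as before (Ifit3 at chr19:34583279-34583578, plus strand; Ifit1 at chr19:34640639-34640938, plus strand), since the genes lie on the same chromosome and were seen in a small set of cells. Capitals mark matches, on either strand, to 2 copies of GAAA separated by any 2 bases, the core letters of the interferon-stimulated response element.
Ifit3: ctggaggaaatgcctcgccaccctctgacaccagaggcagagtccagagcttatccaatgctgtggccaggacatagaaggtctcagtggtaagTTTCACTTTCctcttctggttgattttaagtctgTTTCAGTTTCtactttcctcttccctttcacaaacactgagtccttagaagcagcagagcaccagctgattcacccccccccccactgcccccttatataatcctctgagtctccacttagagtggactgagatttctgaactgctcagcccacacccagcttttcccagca
Ifit1: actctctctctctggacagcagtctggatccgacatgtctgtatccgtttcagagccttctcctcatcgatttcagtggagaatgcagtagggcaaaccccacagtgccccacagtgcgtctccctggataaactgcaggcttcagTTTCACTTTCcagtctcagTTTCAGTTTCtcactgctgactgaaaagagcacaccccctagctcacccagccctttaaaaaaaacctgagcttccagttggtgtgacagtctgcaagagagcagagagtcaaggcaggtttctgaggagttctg
Each window held 2 matches, and 3.44% of 32851 promoters held at least 1.

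The Rbp4/Lamc3 cells were higher than the other members in Sost, Frzb and Sfrp2, which encode secreted Wnt antagonists, and in the tendon genes Tnmd and Fmod, and lower in most of the progenitor list. Of 5563 genes, 1.83% were at least 2-fold higher and 3.07% at least 2-fold lower in these 76 cells. Sost, a secreted Wnt inhibitor best known from osteocytes, had 119 CPM against 12.1 in the other members (ratio 9.87, 5.86 to 17.6) and was seen in 20 cells. Frzb, another secreted Wnt antagonist, had 57.8 against 7.11 CPM, and Sfrp2, from the same family, had 5389.8 against 1935 CPM (2.79, 2.65 to 2.92). Tnmd, a tendon membrane protein, had 45.5 against 9.96 CPM, and Fmod had 577 against 228 CPM (2.53, 2.19 to 2.93). The lectin gene Colec11, the lymphangiogenic factor Vegfd and the metalloproteinase inhibitor Timp4 were 4.92, 4.61 and 4.37 times as high (Vegfd 2.77 times without 1 cell), and the transcription factor gene Runx1 4.41 times. Acta2 had 377 against 112 CPM and Myl9 181 against 74.0 CPM. Of the other smooth muscle markers, Lmod1 had 133 against 54.1 CPM and Tagln 44.3 against 30.6 CPM, while Myh11 had 5 UMIs in all members and Des none. Their part in the result was not tested. Of the list of Wnt and BMP modulators, 1 of 10 measured genes was at least 2-fold higher and 2 were at least 2-fold lower.

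On the low side, 12 of 17 progenitor list genes and 8 of 13 surface genes were at least 2-fold lower in the Rbp4/Lamc3 cells, beside 3.07% of all genes. The median log2 ratio of the progenitor list was -2.20, against a median near 0 over all 5563 genes. Ly6c1 had 17.2 CPM against 419.8 in the other members, and Cd248, or endosialin, 23.4 against 298 CPM. Fn1 had 50.5 against 477 CPM (ratio 0.106, 0.0751 to 0.145) and the hexosamine pathway gene Gfpt2 28.3 against 279.6 CPM. Ly6a and Igfbp6 were 0.197 and 0.217 times as high as in the others. Dpp4 had no UMI in the 76 cells. The complement gene C3 had 265 against 1064 CPM, the reverse of the Pi16/Clec3b cells.

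The Igfbp5/Sema3c cells, though few, had the highest summed level of the progenitor list, but the cells of the state were divided. The list took 1.47% to 2.78% of the UMIs in 12 of the 24 cells, of which 8 were later found in cluster C4 and 4 in cluster C2, and 0.112% to 0.811% in the other 12. The median was 0.585% in the Pi16/Clec3b and 0.395% in the Rbp4/Lamc3 cells, and 6 of the Igfbp5/Sema3c cells lay below the latter. Of 5563 genes, 2.97% were at least 2-fold higher and 4.37% at least 2-fold lower in these 24 cells, but 11 of the 17 progenitor list genes were at least 2-fold higher and all 17 had a ratio above 1. The median log2 ratio was 1.55, against 0.03 over all genes. Dpp4, a membrane peptidase, had 127 CPM against 15.3 in the other members (ratio 8.27, 5.02 to 13.8), and was seen in 7 of the 24 cells. The ligand gene Wnt2 had 136 against 12.7 CPM in 9 cells (10.7, 6.38 to 18.4), and Efhd1 164 against 23.2 CPM in 9 cells. Fn1 had 714 against 254 CPM, Ly6c1 479 against 237 CPM and Cd55, which shields cells from complement, 222 against 56.5 CPM. Of the surface list, 6 of 13 genes were at least 2-fold higher. The list was chosen with earlier results of these data known, so its count is no independent support.

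Several abundant matrix genes were lower in the same cells, but the matrix lists were mixed. Of the collagens, 2 of 12 were at least 2-fold lower and 1 at least 2-fold higher, of the proteoglycans 1 of 9 was lower, and of the matrix glycoproteins 1 of 10 was lower and 3 were higher. Of the elastic fibre genes, 4 of 13 were lower and 1 was higher. Of all 5563 genes, 4.37% were at least 2-fold lower and 2.97% at least 2-fold higher. In lists this short such shares come to few genes, so the counts of 1 gene are not read. Col1a1 had 2175 CPM against 5501 in the other members (ratio 0.395, 0.366 to 0.427), Col3a1 1792 against 3886 CPM, and Sfrp2 429 against 3674 CPM (0.117, 0.0981 to 0.138). The largest ratio of the state belonged to Col12a1, at 48.8 (26.7 to 97.5), but its UMIs came from 4 of the 24 cells, with 43% of them in 1 cell. Cytl1, which encodes a secreted protein of cartilage and endothelium, was 10.1 times as high, with 65.7% of the UMIs of the state in 1 cell. Without these cells the ratios were 29.3 and 3.65. Angptl1, the sphingomyelinase gene Smpd3 and Lrrn4cl were seen in 7, 8 and 11 of the 24 cells at 169.9, 188 and 213 CPM, against 14.3, 20.1 and 25.9 CPM in the others, and Angptl1 had 101 CPM without its highest cell.

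The 212 cells were also clustered after removal of all 300 listed genes. Of the 5 clusters (C1 to C5, with 72, 60, 43, 20 and 17 cells), clusters C1 and C2 held 35 and 31 of the 76 Rbp4/Lamc3 cells, and cluster C3 held 25 of the 59 Pi16/Clec3b cells, with 14 and 13 more in clusters C2 and C1. The 24 Igfbp5/Sema3c cells were spread over cluster C4 with 8, cluster C1 with 7, cluster C2 with 6 and cluster C3 with 3. Cluster C4 also had 4 Pi16/Clec3b, 8 mixed and no Rbp4/Lamc3 cells. The clusters thus did not repeat the states. Cluster C2 was shallow, with a median of 3722 UMIs, against 20028 in cluster C4 and 15298.5 in cluster C1, so depth moved with the clusters. All values per cluster are descriptions of cells that the clustering itself had set apart.

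Cluster C4 combined Pi16, Clec3b and Igfbp5. Pi16 had 9289.8 CPM against 1707 in the other members (ratio 5.44), Clec3b 4837 against 1692 CPM (2.86) and Igfbp5 5944 against 553 CPM (10.7). Of the progenitor list, 15 of 17 genes were at least 2-fold higher, beside 5.7% of all 5563 genes. Dpp4 had 176 CPM against 1.09, Efhd1 244 against 1.64, and Fn1 1413 against 91.1. Procr, the endothelial protein C receptor and a marker of some vascular progenitors, was 21.5 times as high. Among genes outside the lists that led this cluster, the prostaglandin synthase gene Ptgs1 had 306 against 10.4 CPM and was seen in 16 of the 20 cells, and the sialic acid hydroxylase gene Cmah, 246 against 6.00 CPM, in 17. The proprotein convertase gene Pcsk6 had 492 against 18.6 CPM.

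Many collagens and proteoglycans were lower in the same cluster, but not all. Of the collagens, 6 of 12 were at least 2-fold lower in cluster C4, and of the proteoglycans 5 of 9, beside 9.9% of all genes. Col12a1 was higher, with 277 against 2.73 CPM, from 8 of the 20 cells, Col14a1 was 1.94 times as high, and the proteoglycans Dcn and Aspn were at 1.12 and 1.16 times. Matrix glycoproteins went both ways, with 4 of 10 at least 2-fold higher, Fn1 among them, and 4 lower. Col1a1 had 1236 against 5812 CPM and Col3a1 1006 against 4123 CPM. Mgp had 638 against 6395 CPM, Eln 106 against 2326 CPM and Sfrp2 249 against 3822 CPM, while Gsn was 2.15 times as high. Per cell, the progenitor list had a median of 1.88% of the UMIs in cluster C4 and of 0.458% in the other 192 cells. The groups overlapped, since 4 cells of cluster C4 lay above every other cell and 6 other cells lay above its median. The collagen share per cell had medians of 1.5%, 1.60%, 2.68%, 0.867% and 1.52% in clusters C1 to C5, so cluster C3 was the richest in collagen and cluster C4 the poorest.

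**Figure D3:**
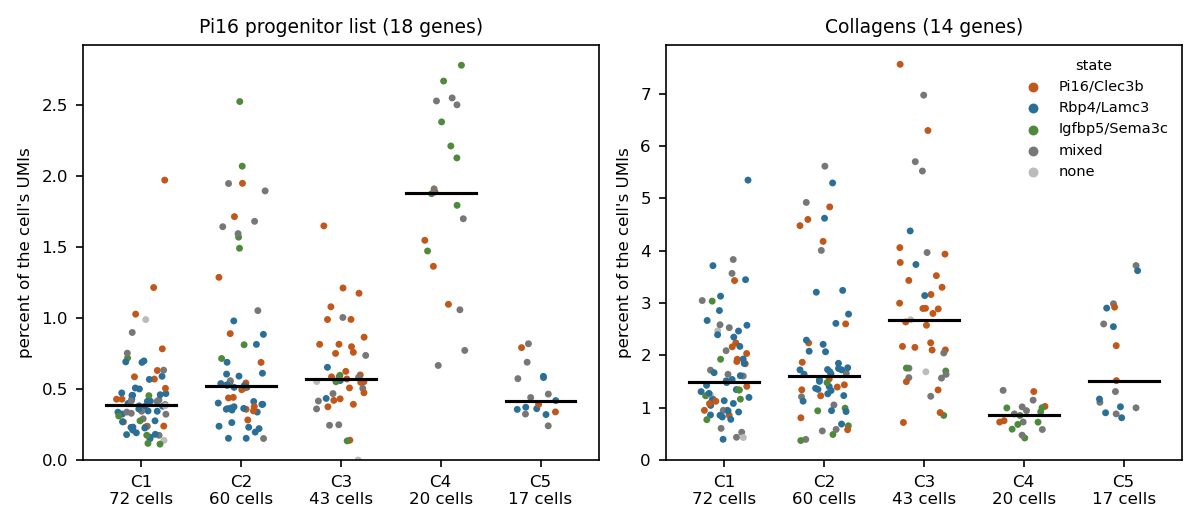
Share of each day 0 fibroblast's UMIs in the Pi16 progenitor list and in the collagens (percent), by cluster. Each point is 1 cell, coloured by pair state. Cluster C4 is highest in the progenitor list, with a median of 1.88%, and lowest in collagens, with a median of 0.867%.

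Cluster C1, the largest, was led by Frzb (52.5 against 0.868 CPM), the integrin gene Itga8 (54.4 against 3.47 CPM) and Sost (96.6 against 9.55 CPM). Tnfrsf11b, which encodes osteoprotegerin, had 202 against 35.6 CPM and was seen in 46 of its 72 cells. The Notch effector Heyl had 150.1 against 28.6 CPM in 52 cells. Cluster C3 was led by the retinoic acid hydroxylase gene Cyp26b1 (73.5 against 13.3 CPM) and the acute-phase gene Serpina3n (85.2 against 20.8 CPM), and its Col1a1 level was 8987 CPM against 4296 in the other members. The leading genes of clusters C2 and C5, such as Tmsb10 (7735 against 1893 CPM in cluster C2), belonged to none of the lists.

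The same states were then read in the fibroblasts of the other libraries, with the scaling of day 0. Those libraries had not chosen the leading genes. Of the 10 leading genes of the Igfbp5/Sema3c cells of day 0, 2 of 6 measured genes were at least 2-fold higher on day 3, 2 of 7 on day 7 and 5 of 10 on day 14. On day 14, the Igfbp5/Sema3c cells again had the progenitor list high, with 11 of 18 genes at least 2-fold higher and 0 lower than in the other fibroblasts of that day, beside 1.91% of all genes. The median log2 ratio was 1.23. Dpp4 had 139 CPM against 25.2 there, and Wnt2 49.7 against 17.7. On days 3 and 7, 5 of 15 measured genes were at least 2-fold higher on each day, beside 4.16% and 2.9% of all genes. Pi16 itself had 1977 CPM in the Igfbp5/Sema3c and 1466 in the Pi16/Clec3b cells of day 14, the order of day 0. That order was reversed on day 3, at 233 against 1143 CPM, and on day 7, at 644 against 892 CPM. The genes that led cluster C4 on day 0 were at least 2-fold higher in the Igfbp5/Sema3c cells in 6 of 10 cases on day 14, 5 of 8 on day 7 and 4 of 8 on day 3. Of the collagens, 0 of 14 were at least 2-fold lower in the Igfbp5/Sema3c cells of any later day, near the 4.53%, 2.82% and 1.91% of all genes on days 3, 7 and 14. With 2 of 12 lower on day 0, the counts are too small to set the days apart.

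For the Rbp4/Lamc3 state, 5 of 8 measured leading genes of day 0 were at least 2-fold higher on day 14 and 0 of 5 on day 3, beside 3.04% and 3.5% of all genes. In the same cells, 14 of 18 progenitor list genes were at least 2-fold lower on day 14, beside 8.75% of all genes, and 9 of 15 on day 3, beside 5.14%. Sost had 111 CPM in the Rbp4/Lamc3 cells of day 14 against 4.12 in the other fibroblasts, and Frzb 236 against 17.6. Of the leading genes of cluster C1, 8 of 9 were at least 2-fold higher in the Rbp4/Lamc3 cells on day 14 and 0 of 5 on day 3. Day 7 held 8 such cells, too few to be read. For the Pi16/Clec3b state, 0 of 5, 2 of 5 and 1 of 9 measured leading genes of day 0 were at least 2-fold higher on days 3, 7 and 14, beside 2.29%, 1.05% and 0.814% of all genes. Of the leading genes of cluster C3, 3 of 9, 0 of 7 and 0 of 9 were at least 2-fold higher in these cells on the same days, and 1 was lower on each. Of the progenitor list, 0 of 15, 1 of 15 and 6 of 18 genes were at least 2-fold lower on days 3, 7 and 14, beside 5.68%, 3.63% and 2.29%, and 2 of 15 were at least 2-fold higher on day 3. The leading gene of the state that recurred on day 14 was C7, with 25.2 against 8.64 CPM. On day 7, Ifit3 was 10.9 times and Ifit1 3.30 times as high in these cells, and on day 3 1.15 and 1.56 times.

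**Figure D4:**
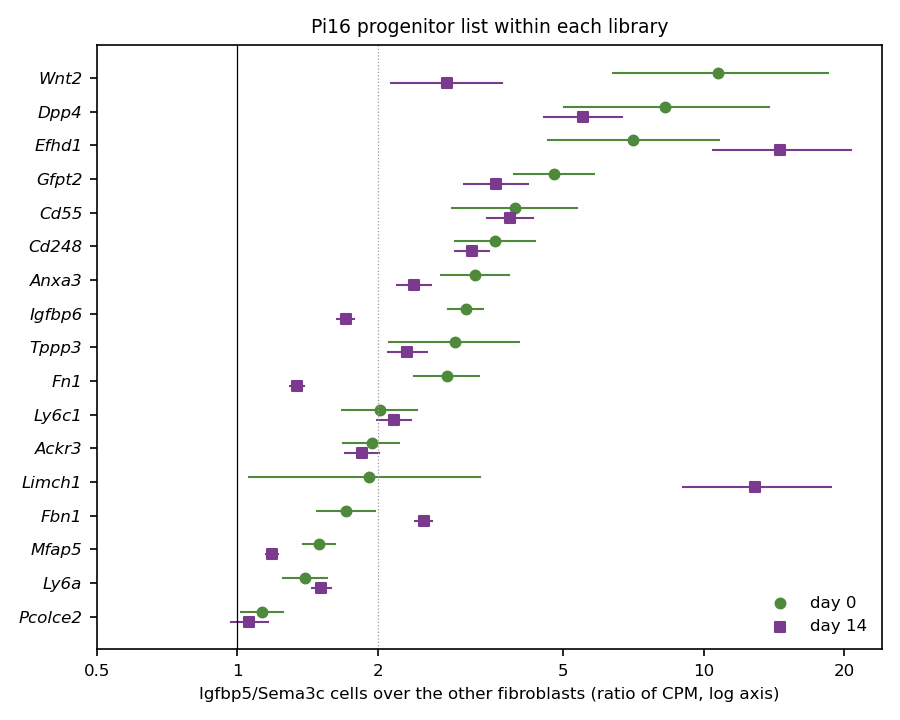
Ratio of the level in Igfbp5/Sema3c cells to that in the other fibroblasts of the same library (log axis) for 17 genes of the Pi16 progenitor list, on day 0 (circles) and day 14 (squares), with 95% intervals of counting error. Lines mark ratios of 1 and 2. On day 0 all 17 ratios are above 1, and 11 are at least 2.

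The pair genes themselves were lower in the fibroblasts after injury. Pi16 had 3026 CPM on day 0, 384 on day 3, 679 on day 7 and 1361 on day 14. Clec3b went from 2239 on day 0 to 309.6, 325 and 1291 on days 3, 7 and 14, and Rbp4 from 1359.7 on day 0 to 158, 44.5 and 215 on days 3, 7 and 14. Both genes of the Rbp4/Lamc3 pair stayed far below day 0 on all later days, with Lamc3 at 247 CPM on day 0, 12.1 on day 3, 13.1 on day 7 and 29.7 on day 14. Igfbp5 was closer to its day 0 level on day 14, at 1491 CPM on day 0, 85.3 on day 3, 189 on day 7 and 1072 on day 14. Sema3c was the exception, with 92.4 CPM on day 0, 26.0 on day 3, 75.6 on day 7 and 181 on day 14. With cells thinned to 1000 UMIs, Rbp4/Lamc3 cells made up 31.6% of the fibroblasts on day 0 and 8.75%, 0.444% and 5.69% on days 3, 7 and 14. Pi16/Clec3b cells made up 29.2%, 16.9%, 14.2% and 29.3%, and Igfbp5/Sema3c cells 11.3%, 4.38%, 5.78% and 15.2%. Without thinning, where the later cells had higher median UMIs, the shares were higher, and the order against day 0 turned for some. Pi16/Clec3b cells were then 27.8% on day 0 and 28.8%, 39.1% and 48.0% on days 3, 7 and 14, and Igfbp5/Sema3c cells 11.3%, 9.38%, 14.2% and 20.9%. Rbp4/Lamc3 cells were 35.8%, 23.8%, 3.56% and 10.2%, lower than on day 0 on all later days in both readings, but by less without thinning. Without the fainter partners they were 36.9% on day 0 and 22.4% on day 3. No order against day 0 was therefore read from the shares of the Pi16/Clec3b cells or from that of the Igfbp5/Sema3c cells on day 7.

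Beyond the pairs, 631 of 7462 genes with at least 100 UMIs were at least 2-fold higher on day 0 than on day 3 (8.46%) and 661 at least 2-fold lower (8.86%). Against day 7 the shares were 6.1% and 8.45%, and against day 14 3.02% and 5.97%. Without the cells above 30000 UMIs, which day 0 lacked, 320 genes were higher and 126 lower than on day 3. Against day 7 both counts also fell and became nearly equal, as given under the dependence on processing. Leaving out cells also changed which genes met the minimum of UMIs, so these counts are not set beside the shares of all genes. Among the genes highest on day 0, C7 had 227 CPM on day 0, 4.15 on day 3, 1.19 on day 7 and 17.3 on day 14. Angptl7 had 80.7 CPM on day 0, no UMI on day 3 and 5.72 CPM on day 14. Sost had 51.4 CPM on day 0, 0.541 on day 3, 1.59 on day 7 and 15.1 on day 14, and Inmt 72.6 CPM on day 0, 4.69 on day 3, 0.597 on day 7 and 18.2 on day 14. Fmod, the proteoglycan of the Rbp4/Lamc3 cells, had 356 CPM on day 0, 11.5 on day 3, 108 on day 7 and 196 on day 14. Adamtsl2, a microfibril-associated glycoprotein, had 102 CPM on day 0 and 3.14 on day 14. The transcript models AI507597 and Gm9780 also led, at 285 and 403 CPM on day 0 and 15.1 and 24.4 on day 14.

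The genes lowest on day 0 relative to later days included acute-phase, chemokine and wound matrix genes. Whether the cells compared were of the same kind on all days was not tested. The acute-phase gene Saa3 had 0.451 CPM on day 0, 3460.3 on day 3, 550.2 on day 7 and 4.60 on day 14, and Lcn2, an iron-scavenging protein, 1.8 CPM on day 0, 665 on day 3, 352 on day 7 and 2.24 on day 14. The monocyte attractants Ccl2 and Ccl7 had 4.06 and 2.25 CPM on day 0 and 952 and 752 on day 3. As given above, most of their few day 0 UMIs lay in fainter partners of day 3 cells. Cthrc1 had 5.86 CPM on day 0, 565 on day 3, 1539 on day 7 and 723 on day 14, and C1qtnf3 0.451 CPM on day 0, 0.721 on day 3, 162 on day 7 and 446 on day 14. Thbs1, Tnc and Fbn2 were without a UMI on day 0 and had 447, 210.2 and 99.8 CPM on day 7. Col2a1, the cartilage collagen, had no UMI on day 0 and 199.8 CPM on day 14, and the chondrocyte markers together had 251 CPM then. Of the activated fibroblast list, 6 of 8, 10 of 10 and 7 of 9 measured genes were at least 2-fold lower on day 0 than on days 3, 7 and 14. All measured proliferation genes (10, 8 and 2) were lower. Over all genes, the shares at least 2-fold lower were 8.86%, 8.45% and 5.97%. The 7 macrophage markers together had 4.06 CPM on day 0, 54.6 on day 3, 141 on day 7 and 32.9 on day 14 in the same fibroblasts, and their part in these differences was not tested.

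Of the collagens, 7, 11 and 12 of 14 were at least 2-fold lower on day 0 than on days 3, 7 and 14, beside 8.86%, 8.45% and 5.97% of all genes. None of the collagens was at least 2-fold higher, beside 8.46%, 6.1% and 3.02% of all genes. Their summed level was 18721 CPM on day 0, 45209.6 on day 3, 67198 on day 7 and 75491 on day 14. Col3a1 had 3580.5 CPM on day 0, 16814 on day 3, 24596 on day 7 and 26763 on day 14. Proteoglycans went the other way on day 3, with 6 of 9 at least 2-fold higher on day 0, then 5 of 9 and 1 of 9, beside the same shares of all genes. Dcn had 14358 CPM on day 0, 5229.6 on day 3, 6534 on day 7 and 12959.9 on day 14. Dcn and Lum were used by the rule in every library, so the proteoglycan levels describe the choice of cells in part. Without both, the other 7 proteoglycans had 5776 CPM on day 0, 3032 on day 3, 6617 on day 7 and 6166 on day 14. Complement genes were at least 2-fold higher on day 0 in 4 of 11 cases against days 3 and 7 each, beside 8.46% and 6.1% of all genes. Metal and redox genes were higher in 2, 3 and 6 of 8 cases against days 3, 7 and 14, beside 8.46%, 6.1% and 3.02% of all genes. They were led by Gsn with 10476 CPM on day 0, 591 on day 3, 720.4 on day 7 and 3461 on day 14. Without Gsn, the summed level of the list was 14521 CPM on day 0, 15480 on day 3, 7093 on day 7 and 7353 on day 14. Of the 21 immediate early and stress genes, 4, 6 and 11 were at least 2-fold lower on day 0 than on days 3, 7 and 14, beside 8.86%, 8.45% and 5.97% of all genes. None was at least 2-fold higher, beside 8.46%, 6.1% and 3.02% of all genes, and with 21 genes such shares come to few genes. Fos had 601 CPM on day 0, 449.9 on day 3, 1037 on day 7 and 2081 on day 14.

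**Figure D5:**
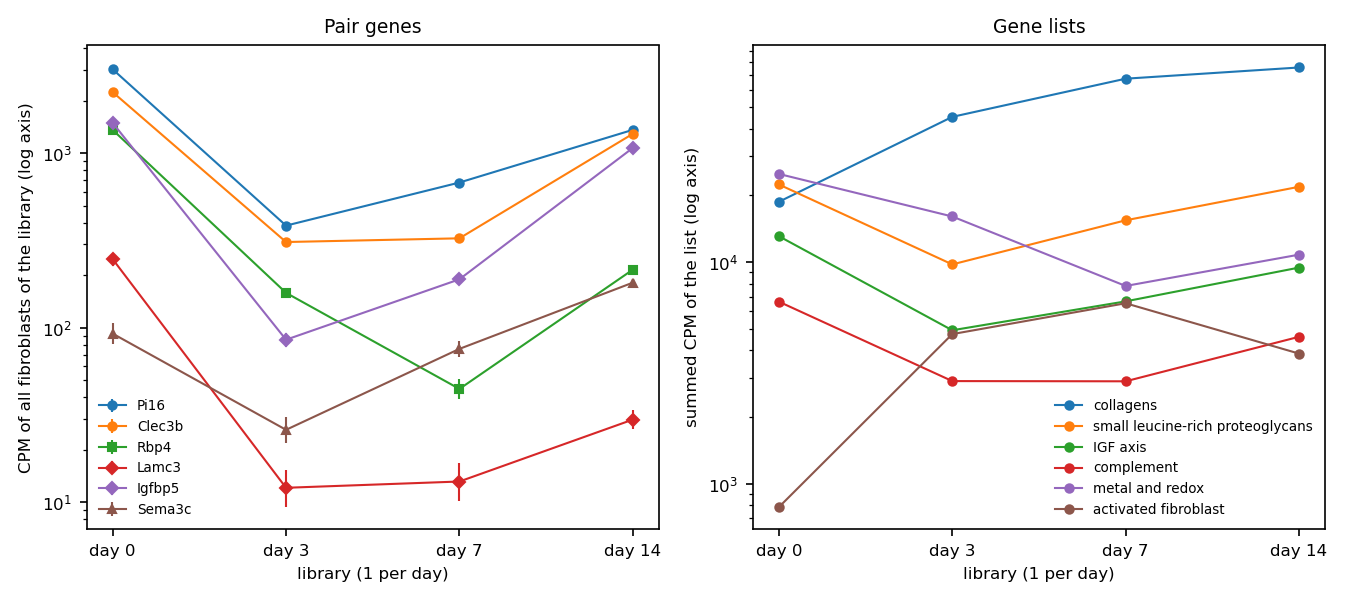
Levels in fibroblasts on days 0, 3, 7 and 14 (CPM), for the 6 pair genes with 95% intervals of counting error and for the sums of 6 gene lists. Each point is 1 library, days are evenly spaced, and lines join libraries. Rbp4 is highest on day 0, at 1359.7 CPM, and the collagen sum is lowest there, at 18721 CPM.

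Variation between the 212 cells beyond counting error was measured as the mean squared Pearson residual of each gene, which is 1 when counts scatter as counting alone gives. Of 3329 genes with at least 100 UMIs, 547 (16.4%) had a value of at least 2, and the median was 1.19. With cells thinned to 1000 UMIs, 69 genes did, with a median of 1.02. Cst3 had the highest value, 104, at 25194 CPM in the Rbp4/Lamc3 cells and 11535 CPM in the Igfbp5/Sema3c cells. Igfbp5 (79.0), Sparc (72.1), Mgp (69.2) and Pi16 (68.8) followed, then Gsn, Gm42418, Sfrp2, Cytl1 and Nupr1. With cells thinned to 1000 UMIs the order changed, with Gm42418 first (20.8) and Cst3 second (15.6), and Igfbp5 and Pi16 ranked 5 and 10. Nupr1, a stress-response gene, had 425 CPM in cluster C4 and 5312 CPM in cluster C2. Mmp3, Col1a1, Fth1, Malat1 and Col3a1 completed the first 15. Cytl1 had 41.6% of its UMIs in 1 cell. Stress genes also varied together. Over the cells, the UMI shares of Hspa1a plus Hspa1b and of Dnajb1, a co-chaperone, had a Pearson correlation of 0.645, a Spearman correlation of 0.389 and 0.225 after thinning, and Fos and Junb had 0.483, 0.56 and 0.283.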

How the data were processed

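Single-cell RNA-sequencing was analysed in 4 libraries, 1 for each of days 0, 3, 7 and 14. The authors deposited unnormalised UMI counts for each gene in each cell barcode, made with a droplet 3′ kit and, per the file headers, Cell Ranger 3.0.2 (the study's methods name another version). The barcodes were those called as cells. The genome build named in the sources is not a mouse build, so genes were matched by symbol and no coordinate was taken from the count files. Promoters came from RefSeq tables on GRCm38.p6.

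Members were chosen per barcode by the limits given in the report. The members and gene lists were chosen with earlier results of these data known. Counts were summed over cells and given as CPM with exact Poisson intervals, shares with exact binomial (Clopper-Pearson) intervals, and ratios of CPM with exact conditional binomial intervals, all at 95% and for counting error only. Depth was 2218141 UMIs over 212 cells. A gene needed at least 50 UMIs in all members for a ratio between states or clusters and at least 100 UMIs in both groups together for a ratio between days. Ratios against 0 UMIs used 3 UMIs. As 1 library stood for each day, no test was made and no p-value is given.

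Genes named were those of the lists, led by the 4 highest of each list and those at or near 0, the 10 largest ratios per state or cluster (seen in at least 10% of its cells) and per day in each direction, the 15 most variable genes and the 15 most abundant genes. A few genes that this rule names are not reported here. Other genes were named after their values were seen, which holds for some examples within the lists.

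For clusters, each cell was scaled to 10000 counts before a log transform, 300 listed genes were left out, and 1000 variable genes, 15 principal components and 15 neighbours entered Leiden clustering at resolution 0.5 (scanpy 1.11.5, igraph 0.11.9, scikit-learn 1.9.0). Other steps used Python 3.11.15, numpy 2.4.6, scipy 1.17.1 and pandas 2.3.3. No doublets were removed in the main analysis. The sources used here do not say whether the authors removed any. As an alternative, the barcodes with the highest Scrublet scores were left out at 0.8% per 1000 barcodes, 1 of them on day 0. Ratios, states and variability were tested on simulated data.

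Alternatives covered the limits on markers, contractile genes, UMIs and mitochondrial share, doublets, thinning to 1000 UMIs, the margin of the states, per-cell means, the denominator, deep cells and the minimum of UMIs. Leaving out fainter partners of shared barcodes, single cells or single genes of a list, other cluster resolutions and repeated thinning were added after seeing the data.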

Additional observations from a re-analysis of the deposited data

How the results depend on the processing

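Of the 544 values of gene levels under 8 alternatives, 421 stayed within the interval of counting error and 123 moved beyond it. Gene ratios were judged by another limit, 1.5-fold from the reported value. Within it stayed 225 of 240 ratios between states and 159 of 240 ratios between days. No gene ratio changed direction under these alternatives. Leaving out single cells was read apart from them. There, Terf2ip, a leading gene of the Pi16/Clec3b cells, went from 2.65 to 0.582 times the level of the other members without its highest cell, which held 78.6% of its UMIs in the state. Of 249 repeats of 37 main results under 19 alternatives, 208 stayed close to the reported value, 37 moved and 4 changed direction, all 4 of them shares of states on a later day relative to day 0.

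With a minimum of 30 UMIs in place of 100, the genes at least 2-fold higher on day 0 numbered 1088, 774 and 459 against days 3, 7 and 14, and those lower 1139, 1249 and 955. Without cells above 30000 UMIs, 320 and 298 genes were higher than on days 3 and 7, and 126 and 303 lower, so that against day 3 more genes were higher than lower, the opposite of the balance with all cells. With the mean of the CPM of each cell, 1296 genes were lower than on day 7. The lower minimum and leaving out cells also changed which genes were compared. Those counts are therefore not set beside the shares of the main analysis. With cells thinned to 1000 UMIs, the mixed share on day 0 was 11.8% and the share with too few UMIs of any pair 16.0%. Pi16/Clec3b cells were then 16.9%, 14.2% and 29.3% of the fibroblasts of days 3, 7 and 14, Rbp4/Lamc3 cells 8.75%, 0.444% and 5.69%, and Igfbp5/Sema3c cells 4.38%, 5.78% and 15.2%. Relative to the share on day 0, Pi16/Clec3b cells went from 1.03, 1.41 and 1.72 times to 0.577, 0.486 and 1.00 times on days 3, 7 and 14, which turned the direction on days 3 and 7. Igfbp5/Sema3c cells went from 0.828 and 1.26 to 0.386 and 0.51 times on days 3 and 7, which turned day 7, and were at 0.916 times on day 7 with no margin. Rbp4/Lamc3 cells went from 0.662, 0.0992 and 0.283 to 0.277, 0.0141 and 0.180 times, in the same direction. With no margin between the pairs, the mixed share was 0, Pi16/Clec3b cells were 38.2%, 38.8% and 54.3% on days 0, 3 and 14, and Igfbp5/Sema3c cells 17.0% on day 0. With at least 2000 UMIs per cell, 0.543% of the day 0 cells had too few UMIs of any pair, and Pi16/Clec3b cells were 53.6% on day 7. In clusters made without the 6 pair genes alone, at resolution 1, the cluster highest in Igfbp5 had 31 cells in place of 20, and 29 or 30 at the other resolutions. It shared 19 of the 20 cells. Without the listed genes it had 20 to 24 cells over 4 resolutions and shared 18 to 20. Variability of at least 2 was found for 69 genes after thinning in place of 547. Without the 6 fainter partners, the share with too few UMIs of any pair was 0, and no other main result moved. This alternative and the other resolutions were chosen after seeing the data.

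Thinning, the minimum of UMIs and leaving out cells change the number of UMIs or genes by construction. Any other cause of these moves was not tested. Depth limits what can be said of low genes. A gene without a UMI in the 212 cells can be at up to 1.35 CPM, and a state of 24 cells rests on 323708 UMIs. Each day had 1 library, so none could be left out. No paired analysis was possible because each day had a single library and no test was made.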

Other observations

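A Col15a1 list, made of genes that mark a second widespread fibroblast state in other tissues, had 9034 CPM in the day 0 fibroblasts. It was led by Mgp (5393 CPM), Smoc2 (858 CPM) and the globin Cygb (726 CPM), and Col15a1 itself had 211 CPM in 55.7% of the cells. The list did not separate the states. Its summed level was 8548 CPM in the Pi16/Clec3b cells, 9979.7 in the Rbp4/Lamc3 cells and 8137 in the Igfbp5/Sema3c cells, and Col15a1 had 216, 208 and 235 CPM. Its members went apart. Penk had 74.3, 3.69 and 58.7 CPM in these states, with 51.2% of its UMIs in the first of them in 1 cell, while Gpx3, a secreted peroxidase, had 91.6, 56.6 and 290.4 CPM.

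Some transcription factor and stress genes also differed between the states by more than their counting error. Klf4, a factor tied to quiescence and to phenotype switching of vascular cells, had 420.1 CPM in the Pi16/Clec3b cells, 165 in the Rbp4/Lamc3 cells and 874 in the Igfbp5/Sema3c cells (ratio of the last to the other members 2.43, interval 2.11 to 2.80). Ebf1 had 602, 273 and 834 CPM (1.79, 1.56 to 2.06). Of the 21 immediate early and stress genes, 6 were at least 2-fold lower in the Igfbp5/Sema3c cells, beside 4.37% of all genes, and 2 at least 2-fold higher, near the 2.97% of all genes. Fos had 612, 826 and 287 CPM in the 3 states and Hspa1a 1072, 863 and 275 CPM.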
